A study of Homo sapiens with 4 samples.

Results

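The NRF2 genes considered here are 10 of the 57820 genes counted in SY5Y cells, a human neuroblastoma line with wild-type MYCN. They are HMOX1 on the heme side, GCLM and GCLC of glutathione synthesis, TXNRD1 and SRXN1 of the thioredoxin system, the quinone reductase NQO1, the autophagy adaptor SQSTM1, the growth inhibitor OSGIN1, and the transcription factor NFE2L2 (NRF2) with its sensor KEAP1. These genes were chosen by their known place in the oxidative stress response and with the measured difference between SGSS05-NS and DMSO already in view, so their differences are described here and not tested. RNA was sequenced in 2 libraries of cells given DMSO, the solvent, and 2 libraries of cells given SGSS05-NS, each taken after 12 h. The labels give the dose of SGSS05-NS as 3 µM, as does a figure legend of the study, whereas its methods state a lower dose for this line, and which of the doses these libraries received was not inferred. The study reports its RNA sequencing of this line under the name SGSS05-NS3 and also uses SGSS05-NS as a name, so whether the labels mean the same compound is unsure. It describes SGSS05-NS3 as a covalent inhibitor of SETD8, the enzyme that places a single methyl group on a lysine of histone H4. The study also places the compound in a series of naphthoquinone derivatives. It reports that SGSS05-NS3 inhibited several other methyltransferases at micromolar concentrations, with SETD8 the most sensitive of those listed. All 4 libraries came from this 1 line, with 2 biological replicates per condition by the methods of the study.

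NRF2 is held in the cytoplasm by KEAP1, which hands it to a CUL3 ubiquitin ligase for degradation. Oxidants and electrophiles modify cysteines of KEAP1, NRF2 then accumulates, pairs with a small MAF protein and binds antioxidant response elements. Its targets include the enzymes that make glutathione, recycle thioredoxin and reduce quinones. HMOX1, heme oxygenase, breaks heme down to biliverdin, carbon monoxide and iron, and it is also known to be held down by the repressor BACH1 and to answer to AP-1 and heat shock factors.

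Fragments assigned to genes numbered between 21463105 and 25350204 per library. Between 12.3% and 12.4% of the fragments with DMSO fell outside exons annotated on the strand counted, against 15.3% and 16.1% with SGSS05-NS. Fragments on the strand opposite to an exon can be among them. Whether that shift has a part in the results below was not tested. Levels are given as CPM, the fragments of a gene scaled to a common library size. Of 8 neuroblastoma markers, 7 were tested. At an adjusted p under 0.001 in the edgeR quasi-likelihood test, 4 were called lower, none higher and 3 did not pass. Over all genes tested, 8.14% were called lower and 6.37% higher. PHOX2A and HAND2 were abundant in every library although both fell. PHOX2A went from 220.5 and 241 CPM with DMSO to 144 and 149 CPM with SGSS05-NS (adjusted p = 0.00018 in the same edgeR test). The tyrosine hydroxylase gene TH had at most 2 fragments in a library. Of 6 markers of other cell types, PTPRC, KRT5 and CD68 had at most 4 fragments in a library, and PECAM1 was not matched. EPCAM, an epithelial marker, had 37 and 37 fragments with DMSO and 53 and 84 with SGSS05-NS, and COL1A1, a fibroblast marker, had 21 and 22 against 26 and 28. Neither passed the threshold (log2 fold change 0.97 ± 0.27 and 0.41 ± 0.31), and their part in the results on the 10 genes was not tested.

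The genes differ in the antioxidant response elements that lie before the start of their main transcript. The sequences that carry the element are shown before the values. Both strands were searched for the core letters TGACNNNGC and for TGACTCAGC, which also holds the AP-1 element TGANTCA. In the 10000 bases before the start of the main transcript on GRCh37, TGACTCAGC occurred in 4 of the 10 genes, against 12.9% of 19839 protein-coding genes. It occurred 4 times before HMOX1, 2 times before SQSTM1, and 1 time each before NQO1 and GCLC. It did not occur in that window of OSGIN1, GCLM, TXNRD1, SRXN1, NFE2L2 or KEAP1. The shorter core was in the window of all 10 genes, with 10 matches before HMOX1 and 1 before NFE2L2, and in 96.7% of all such windows, so its presence alone separates no gene from the rest. Each stretch below is written 5′ to 3′ on the strand of its gene, with 12 bases on either side and the match in capitals, so that a match on the other strand reads GCTGAGTCA.
HMOX1, 9077 bases before the start, chr22:35768000-35768032, plus strand: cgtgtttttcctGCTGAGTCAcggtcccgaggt
HMOX1, 9019 bases before the start, chr22:35768058-35768090, plus strand: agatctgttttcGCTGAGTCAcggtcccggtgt
HMOX1, 8990 bases before the start, chr22:35768087-35768119, plus strand: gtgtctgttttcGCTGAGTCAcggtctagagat
HMOX1, 3940 bases before the start, chr22:35773137-35773169, plus strand: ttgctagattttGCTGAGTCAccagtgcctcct
SQSTM1, 1320 bases before the start, chr5:179246573-179246605, plus strand: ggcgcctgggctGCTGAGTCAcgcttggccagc
SQSTM1, 352 bases before the start, chr5:179247541-179247573, plus strand: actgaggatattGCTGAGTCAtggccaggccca
NQO1, 455 bases before the start, chr16:69760898-69760930, minus strand: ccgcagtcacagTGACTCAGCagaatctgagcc
GCLC, 3156 bases before the start, chr6:53413035-53413067, minus strand: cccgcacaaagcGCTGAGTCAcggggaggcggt
Of the 4 matches before HMOX1, 3 lay close together, between 8990 and 9077 bases before the start. The matches of SQSTM1 and GCLC lay before the main transcript start but inside the annotated span of the gene.

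**Figure D1:**
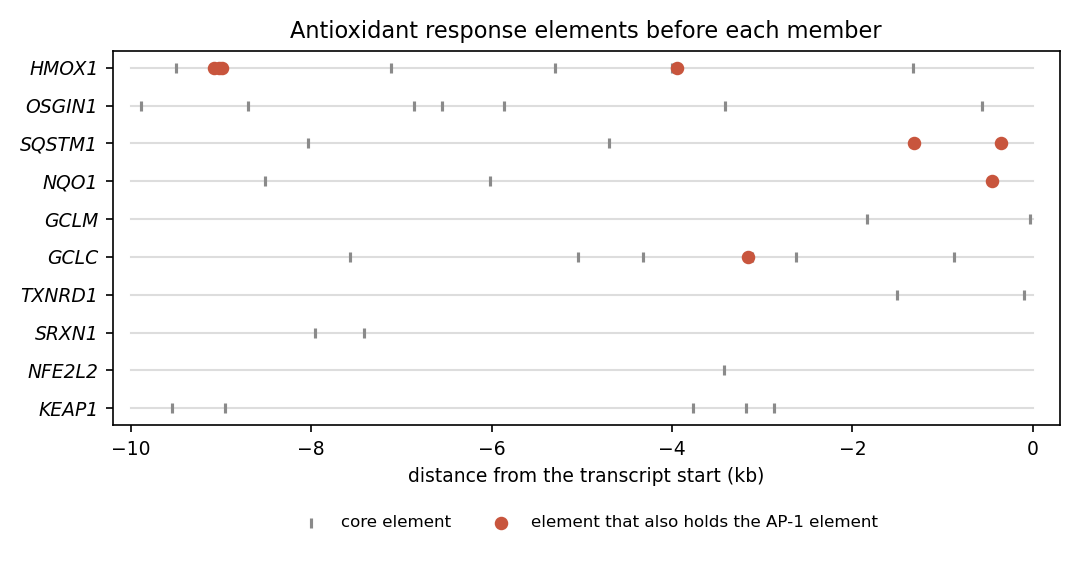
Positions of the antioxidant response element before the main transcript start of each gene. The horizontal axis is the distance from the transcript start in kb and each row is 1 gene; grey ticks are the core element and red circles the element that also holds AP-1, of which HMOX1 has 4, SQSTM1 2, and NQO1 and GCLC 1 each.

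Nearer to the start, promoters of 300 bases (250 before and 50 after the start) were taken from RefSeq on GRCh38.p14, where 9 of the 10 genes had an entry. HMOX1 had none there, so its promoter was not searched in that table. The core element was in 2 of these 9, GCLM and TXNRD1, against 13.6% of 27305 promoters. GCLM held 1 match 34 bases before the start, and TXNRD1 held matches 99 and 8 bases before it. OSGIN1 held an AP-1 element 97 bases before its start, an element found in 7.76% of all promoters. Neither the heat shock letters GAANNTTC nor the ATF4 letters TGATGNAA occurred in the 9 promoters, against 6.87% and 3.67% of all promoters. The 3 promoters with a match are shown from 250 bases before the start to 10 after it, on the strand of the gene, with the matches in capitals.
GCLM promoter, chr1:93909421-93909680, minus strand: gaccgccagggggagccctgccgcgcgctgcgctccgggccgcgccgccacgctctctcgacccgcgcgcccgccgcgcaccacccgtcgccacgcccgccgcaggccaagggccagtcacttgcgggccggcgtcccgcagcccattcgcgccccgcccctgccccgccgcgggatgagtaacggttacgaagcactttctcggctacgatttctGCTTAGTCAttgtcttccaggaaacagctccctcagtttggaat
TXNRD1 promoter, chr12:104215529-104215788, plus strand: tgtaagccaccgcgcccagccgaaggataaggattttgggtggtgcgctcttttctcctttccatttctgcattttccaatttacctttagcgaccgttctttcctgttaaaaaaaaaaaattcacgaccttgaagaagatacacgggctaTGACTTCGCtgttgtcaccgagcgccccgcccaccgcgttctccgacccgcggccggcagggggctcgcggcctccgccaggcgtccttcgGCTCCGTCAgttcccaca
OSGIN1 promoter, chr16:83952990-83953249, plus strand: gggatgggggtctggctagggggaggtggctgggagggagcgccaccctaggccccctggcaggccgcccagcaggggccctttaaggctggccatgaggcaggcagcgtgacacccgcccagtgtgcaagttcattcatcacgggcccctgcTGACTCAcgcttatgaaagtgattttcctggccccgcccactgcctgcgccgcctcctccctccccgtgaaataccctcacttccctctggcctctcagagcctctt
A match states only that the letters are present in the window.

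HMOX1 was close to undetected in DMSO and stood above 90.6% of the genes tested, per length, with SGSS05-NS. HMOX1 (ENSG00000100292.12, chromosome 22 of GRCh37, 35776354 to 35790207, plus strand) was counted in 14 and 16 fragments with DMSO and in 1494 and 1330 fragments with SGSS05-NS. Scaled for depth by TMM, these were 0.558 and 0.685 CPM against 67.3 and 56.5 CPM, or 0.621 ± 0.0897 against 61.9 ± 7.61 (mean ± SD, n = 2 each). Every treated library stood far above both DMSO libraries. The log2 fold change was 6.63 ± 0.19 (SE), a 99.1-fold difference, and the ratio of scaled counts had an exact binomial 95% interval of 69.7 to 148, which covers counting error only. By log2 fold change HMOX1 was number 16 among the 16468 genes tested. Per kb of transcript, its DMSO level lay above 10.7% of the genes tested. In bulk RNA, a larger share of responding cells and more RNA in each cell cannot be told apart.

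The constitutive isoenzyme HMOX2 was measured at 24.0, 20.2, 21.7 and 19.9 CPM in the 2 DMSO and 2 SGSS05-NS libraries, with overlapping groups and a log2 fold change of -0.09 ± 0.13. Iron storage genes rose by less than HMOX1. FTL, the ferritin light chain, rose from 409 and 435 CPM to 896 and 870 CPM, with a log2 fold change of 1.06 ± 0.09 (edgeR quasi-likelihood test, Benjamini-Hochberg adjusted p = 5.3e-06). FTH1, the heavy chain, rose from 266 and 316 CPM to 571 and 519 CPM, with a log2 fold change of 0.90 ± 0.11 (adjusted p = 4.7e-05 in the same edgeR test). ALAS1, which starts heme synthesis, rose with a log2 fold change of 0.95 ± 0.12 (adjusted p = 5e-05 in the same edgeR test). These were the 3 that passed among 16 tested genes of heme and iron handling besides HMOX1, where 6.37% of all genes tested were called higher and 8.14% lower. None of the 16 was called lower, while 3 had a lower value at an unadjusted p under 0.05 and 1 was called lower by edgeR's likelihood ratio test and by DESeq2, none by limma voom. Ferritin genes have many processed copies in the genome, and fragments that map to several places were assigned to no gene.

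Of all 10 genes, OSGIN1 came closest to HMOX1 in size. OSGIN1 is an oxidative stress-induced growth inhibitor. OSGIN1 (ENSG00000140961.8, chromosome 16, 83964916 to 83999937, plus strand) had 9 and 7 fragments with DMSO and 456 and 393 with SGSS05-NS, or 0.359 and 0.2996 CPM against 20.5 and 16.7 CPM. The groups lay far apart, with a log2 fold change of 5.79 ± 0.25 and a ratio of 56.2 (exact binomial 95% interval 34.4 to 98.9). In GENCODE release 44 it shares 457 exon bases with MLYCD on the same strand, and fragments shared by both genes would be assigned to neither. SQSTM1, also called p62, is an adaptor of selective autophagy that can also bind KEAP1. SQSTM1 (ENSG00000161011.15, chromosome 5, 179233398 to 179265078, plus strand) was measured at 57.2 and 52.4 CPM with DMSO and at 334 and 311 CPM with SGSS05-NS. With 7421 and 7304 fragments in the treated libraries it was, with TXNRD1, among the deepest counted of the 10. Its log2 fold change was 2.56 ± 0.10, and the 4 pairs of a treated with a DMSO library gave 2.44 to 2.67. SQSTM1 shares 1582 exon bases with MRNIP on the opposite strand. Counted without regard to strand it held 774 and 704 fragments with DMSO and 4098 and 4121 with SGSS05-NS, and its log2 fold change was 2.52 ± 0.10. None of the 5 other selective autophagy receptors tested passed the threshold in the edgeR quasi-likelihood test or by DESeq2 or limma voom, and 2 were higher at an unadjusted p under 0.05. Over all genes tested, the quasi-likelihood test called 6.37% higher and 8.14% lower, so none of 5 lies near those shares.

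**Figure D2:**
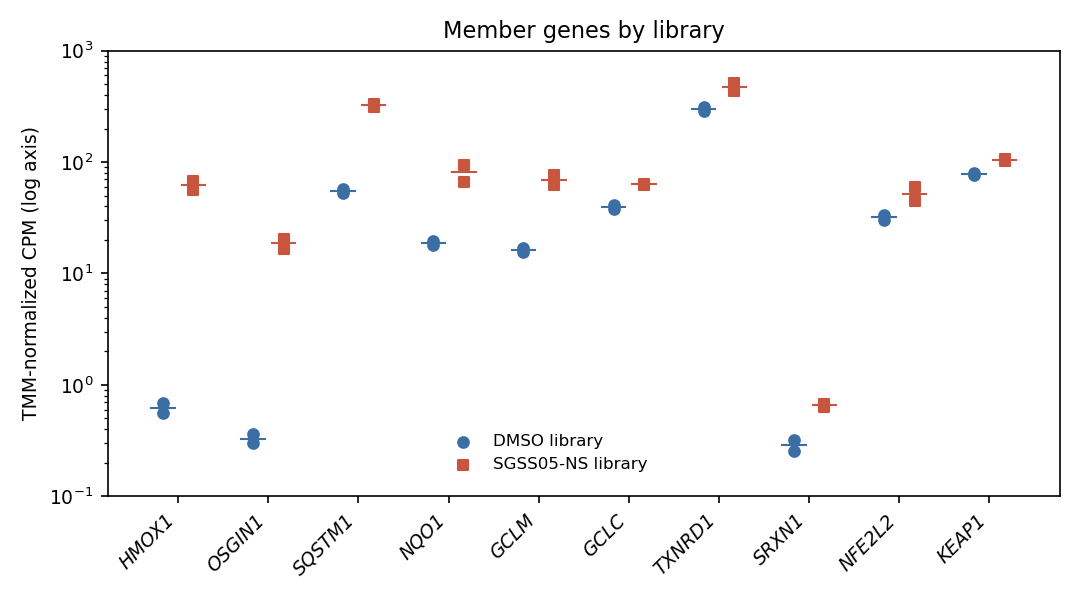
TMM-normalized CPM of the 10 genes in each library, on a log axis; blue circles are the 2 DMSO libraries, red squares the 2 SGSS05-NS libraries and short lines the group means. In all 10 genes both SGSS05-NS libraries lie above both DMSO libraries, with HMOX1 and OSGIN1 the widest apart.

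The 2 subunits of glutamate-cysteine ligase, the first enzyme of glutathione synthesis, differed in size of change. GCLM, the modifier subunit (ENSG00000023909.5, chromosome 1, 94350755 to 94375012, minus strand), was measured at 15.7 and 17.1 CPM with DMSO and at 76.6 and 62.8 CPM with SGSS05-NS. GCLC, the catalytic subunit (ENSG00000001084.6, chromosome 6, 53362139 to 53481768, minus strand), was measured at 37.7 and 41.0 CPM with DMSO and at 62.7 and 63.4 CPM with SGSS05-NS. In both subunits the groups did not overlap. The log2 fold change was 2.09 ± 0.12 for GCLM and 0.68 ± 0.10 for GCLC. Per kb of the main transcript, the ratio of GCLM to GCLC was 0.322 and 0.323 with DMSO and 0.946 and 0.768 with SGSS05-NS. By that measure the modifier stayed below the catalytic subunit in every library. In CPM without a length, GCLM lay above GCLC in SGSS05-NS library 1, at 76.6 against 62.7. In SGSS05-NS library 2 it lay below, at 62.8 against 63.4. The order thus depends on the length used, and which transcripts were present was not measured.

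Both chains of the cystine transporter rose. SLC7A11, its light chain, rose from 3.79 and 7.83 CPM to 47.4 and 33.8 CPM, with a log2 fold change of 2.81 ± 0.25 (edgeR quasi-likelihood test, adjusted p = 5.4e-06). SLC3A2, its heavy chain partner, rose with a log2 fold change of 1.91 ± 0.13 (adjusted p = 7.6e-07 in the same edgeR test). CHAC1, which degrades glutathione and so works against the name of the list, rose from 3.39 and 8.18 CPM to 21.1 and 29.8 CPM (log2 fold change 2.15 ± 0.28, adjusted p = 9.9e-05 in the same edgeR test). GSS, which completes glutathione synthesis, had a log2 fold change of -0.07 ± 0.11, and GSR, which recycles it, of 0.21 ± 0.09, and neither passed the threshold. Of the 29 tested genes of glutathione synthesis and use besides GCLM and GCLC, 5 were called higher, 2 lower and 22 did not pass, against 6.37% higher and 8.14% lower over all genes tested.

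On the thioredoxin side, TXNRD1 was 1.58-fold higher from an already high level, and SRXN1 rested on few fragments. TXNRD1, thioredoxin reductase (ENSG00000198431.11, chromosome 12, 104609557 to 104744085, plus strand), was measured at 286 and 315 CPM with DMSO and at 516 and 432 CPM with SGSS05-NS. The groups were apart, with a log2 fold change of 0.66 ± 0.11 and pairs of libraries between 0.46 and 0.85. SRXN1, sulfiredoxin, restores overoxidized peroxiredoxins. SRXN1 (ENSG00000271303.1, chromosome 20, 627259 to 633844, minus strand) was counted in 8 and 6 fragments with DMSO and in 15 and 15 with SGSS05-NS. Its log2 fold change was 1.17 ± 0.41, and the count ratio of 2.27 had an exact binomial 95% interval of 1.17 to 4.64. In GENCODE release 44, 2292 of its 2528 exon bases, 90.7%, are shared with a protein-coding gene on the same strand. Fragments shared by both genes would be assigned to neither, so its level may be too low as counted. Whether the release used for counting holds that overlap was not checked. Thioredoxin itself, TXN, was measured at 86.1 and 78.9 CPM with DMSO and at 82.8 and 79.9 CPM with SGSS05-NS, and PRDX1, a peroxiredoxin, had a log2 fold change of 0.38 ± 0.10. Neither passed the threshold. Among the 15 tested genes of this system besides TXNRD1 and SRXN1, none was called higher and 1 lower. Over all genes tested, 6.37% were called higher and 8.14% lower, so these counts lie near those shares. The 1 called lower was the mitochondrial peroxiredoxin PRDX3, with a log2 fold change of -0.59 ± 0.09 (edgeR quasi-likelihood test, adjusted p = 0.00032). Of these 15 genes, 4 were higher at an unadjusted p under 0.05, and 2 were called higher by edgeR's likelihood ratio test, none by DESeq2 or limma voom. The likelihood ratio test called 2022 of all 16468 genes tested higher. TXNIP was not matched to an identifier.

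NQO1, which reduces quinones with NADPH, lay with GCLM in size. NQO1 (ENSG00000181019.8, chromosome 16, 69740899 to 69760571, minus strand) was measured at 18.1 and 19.6 CPM with DMSO and at 95.1 and 66.4 CPM with SGSS05-NS. The treated libraries differed from each other, but both stood above DMSO, with a log2 fold change of 2.10 ± 0.15 and pairs between 1.76 and 2.39. Of 18 other tested quinone, carbonyl and NADPH enzymes, 3 were called higher and 1 lower, against the same 6.37% and 8.14%. CYB5R1, a cytochrome reductase, rose with a log2 fold change of 0.99 ± 0.11 and EPHX1, an epoxide hydrolase, of 0.98 ± 0.15 (adjusted p = 3.5e-05 and 0.00024, edgeR quasi-likelihood test). IDH1, a cytosolic source of NADPH, fell by 0.60 on the log2 scale (adjusted p = 0.00034 in the same edgeR test). ME1, malic enzyme, with a log2 fold change of 0.46 ± 0.11, did not pass. PRNP, the prion protein gene, was the only one called among 5 tested genes of superoxide and peroxide handling, and it rose from 6.26 and 6.63 CPM to 25.3 and 28.2 CPM (log2 fold change 2.05 ± 0.13, edgeR quasi-likelihood test, adjusted p = 4.9e-07). No gene of that list was called lower, while 2 were lower at an unadjusted p under 0.05 and 1 was called lower by the likelihood ratio test and by DESeq2, none by limma voom.

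Neither NRF2 nor its sensor passed the threshold at the RNA level, with measured folds of 1.63 and 1.33. NFE2L2 (ENSG00000116044.11, chromosome 2, 178083395 to 178257484, minus strand) was measured at 33.7 and 30.1 CPM with DMSO and at 59.3 and 44.8 CPM with SGSS05-NS, with a log2 fold change of 0.71 ± 0.13. KEAP1 (ENSG00000079999.9, chromosome 19, 10596801 to 10614234, minus strand) was measured at 77.0 and 79.1 CPM with DMSO and at 106 and 102 CPM with SGSS05-NS, with a log2 fold change of 0.41 ± 0.09. The groups were apart for both. NFE2L2 passed under edgeR's likelihood ratio test and DESeq2, and KEAP1 under the likelihood ratio test. NFE2L2 shares 2037 exon bases with a long noncoding gene on the same strand and 3509 with HNRNPA3 on the opposite strand. Over the whole of NFE2L2, 17 and 19 fragments with DMSO and 81 and 104 with SGSS05-NS were counted on the opposite strand, and their source was not tested. Per kb, the ratio of NFE2L2 to KEAP1 was 0.459 and 0.399 with DMSO and 0.587 and 0.462 with SGSS05-NS, with the higher DMSO ratio just under the lower treated one. The ratio of SQSTM1 to KEAP1, its binding partner, was 0.671 and 0.599 with DMSO and 2.85 and 2.76 with SGSS05-NS, so SQSTM1 went from the rarer to the more abundant transcript of the pair. These are levels of RNA, and NRF2 is known to be controlled mainly as a protein.

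Among the partners and competitors of NRF2, the small MAF genes MAFF and MAFG rose. MAFF rose from 1.59 and 2.44 CPM to 14.2 and 23.5 CPM, with a log2 fold change of 3.23 ± 0.27 (edgeR quasi-likelihood test, adjusted p = 3.1e-06). MAFG rose from 47.1 and 47.4 CPM to 131 and 116 CPM, with a log2 fold change of 1.38 ± 0.10 (adjusted p = 1e-06 in the same edgeR test). BACH1, the repressor of HMOX1, rose with a log2 fold change of 0.76 ± 0.10 (adjusted p = 0.00013 in the same edgeR test), and BACH2 fell by 1.17 on that scale (adjusted p = 1.9e-05 in the same edgeR test). MAFK, with a log2 fold change of 0.90 ± 0.26, did not pass. Per kb, the ratio of NFE2L2 to BACH1 was 1.10 and 0.909 with DMSO and 1.19 and 0.774 with SGSS05-NS, and these ranges overlapped. In all, 3 of 11 sensor and partner factors were called higher and 4 lower, where all genes tested gave 6.37% and 8.14%.

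Set side by side, HMOX1 differed far more than the glutathione and thioredoxin genes. Its log2 fold change exceeded the mean of GCLM, GCLC, TXNRD1 and SRXN1 by 5.48, a 44.7-fold difference, where that mean was 1.15. Without SRXN1, whose counts were lowest, the excess was 5.49. Per kb of transcript, HMOX1 stood at 0.112 and 0.126 of GCLM with DMSO and at 2.76 and 2.83 of it with SGSS05-NS. Against GCLC the ratios were 0.0360 and 0.0407, then 2.61 and 2.17. Against TXNRD1 they were 0.00485 and 0.00540, then 0.324 and 0.325, so TXNRD1 stayed the more abundant transcript in every library. HMOX1 passed HMOX2 as well, with ratios of 0.0250 and 0.0366 in DMSO and 3.34 and 3.06 with SGSS05-NS. No test was made of these differences, since the genes were picked with them known.

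**Figure D3:**
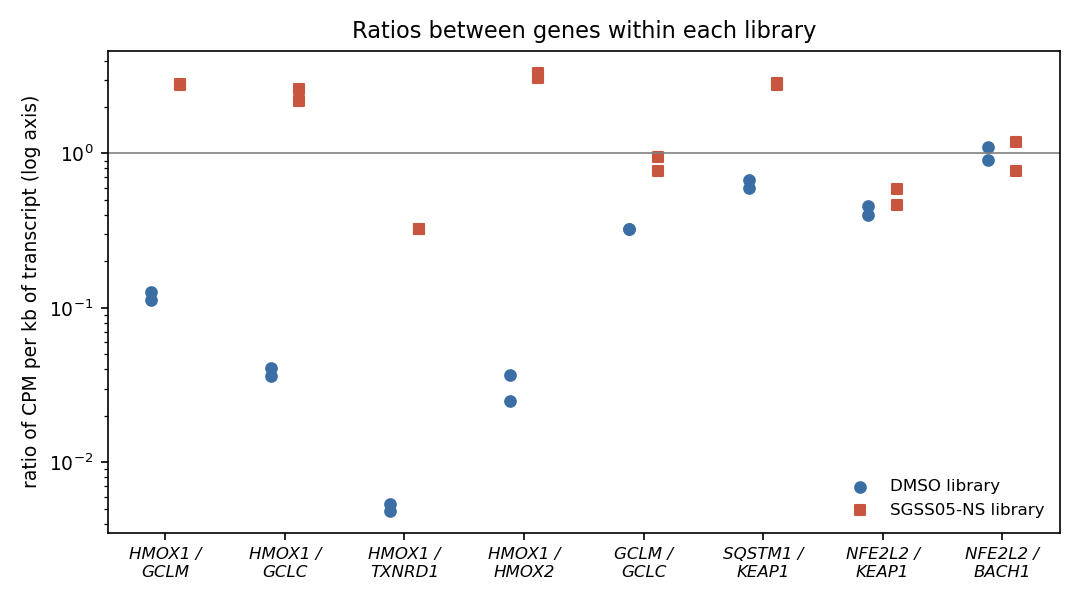
Ratio of CPM per kb of transcript between pairs of genes within each library, on a log axis; blue circles are DMSO and red squares SGSS05-NS libraries and the grey line marks a ratio of 1. HMOX1 crosses the line against GCLM, GCLC and HMOX2 and stays below it against TXNRD1, while NFE2L2 to BACH1 overlaps between the groups.

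**Figure D4:**
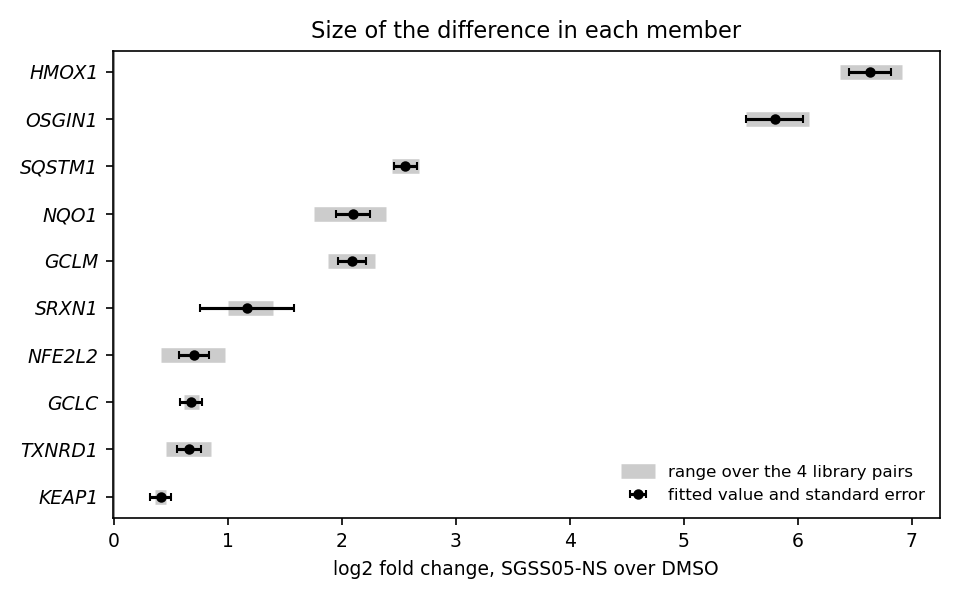
Log2 fold change of SGSS05-NS over DMSO in each of the 10 genes; points and bars are the fitted value and its standard error and grey bands the range over the 4 pairs of a treated with a DMSO library. HMOX1 at 6.63 and OSGIN1 at 5.79 lie apart from SQSTM1, NQO1 and GCLM between 2.09 and 2.56, and SRXN1, NFE2L2, GCLC, TXNRD1 and KEAP1 between 0.41 and 1.17.

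Among the 10 genes, 7 were called higher at an adjusted p under 0.001 and none lower, also at an unadjusted p under 0.05 or by DESeq2 and limma voom, against 6.37% of all 16468 genes tested called higher and 8.14% called lower. The other 3, SRXN1, NFE2L2 and KEAP1, did not pass. In all 10 both treated libraries lay above both DMSO libraries, as they did for 37.8% of the genes tested. Since the choice of genes used this contrast, nothing is read from these shares. The median log2 fold change was 1.63 over the 10 genes and 0.01 over all genes tested.

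Ordered by CPM per kb of transcript, with SRXN1 left out, the DMSO libraries ran from TXNRD1 at 77.8 through KEAP1 at 30.4, SQSTM1 at 19.3, NFE2L2 at 13.0, GCLC at 10.4, NQO1 at 7.48 and GCLM at 3.35 to HMOX1 at 0.400 and OSGIN1 at 0.171. No neighbours in that order overlapped. With SGSS05-NS the order was TXNRD1 at 123, SQSTM1 at 114, KEAP1 at 40.5, HMOX1 at 39.9, NQO1 at 32.0, NFE2L2 at 21.3, GCLC at 16.7, GCLM at 14.3 and OSGIN1 at 9.69. TXNRD1 and SQSTM1 overlapped, as did KEAP1 with HMOX1 and HMOX1 with NQO1, so their order is not set by these libraries. Of the genes in this order, OSGIN1 was the lowest in both conditions despite the size of its change. SRXN1, left out, was lower still, at 0.126 and 0.102 with DMSO and 0.267 and 0.252 with SGSS05-NS.

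Across the 7 lists of other pathway genes, 99 were tested, of which 15 were called higher, 8 lower and 76 did not pass. That is 15.2% higher and 8.08% lower, against 6.37% and 8.14% of all genes tested, with a median log2 fold change of 0.10 against 0.01 over all genes tested. The lists were written with earlier results of these data known, so the counts are a description. Among the lists the median was highest for the quinone, carbonyl and NADPH enzymes, at 0.33, and the heme and iron list, at 0.23, and it was -0.02 for the thioredoxin system.

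**Figure D5:**
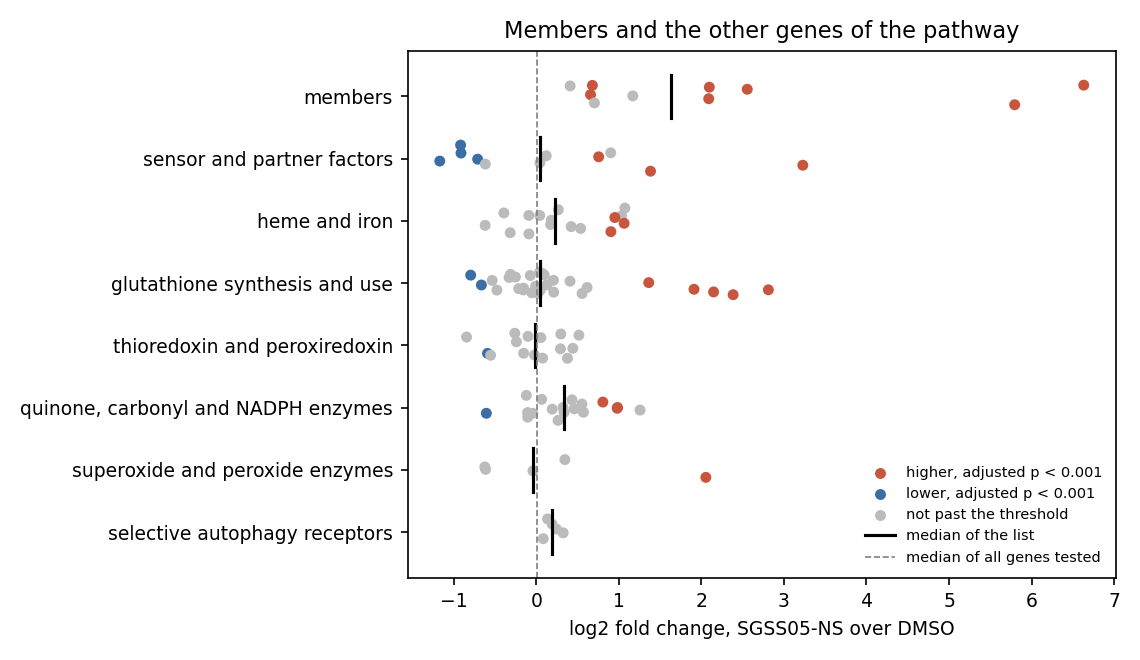
Log2 fold change of SGSS05-NS over DMSO for the 10 genes and for 7 lists of other pathway genes; each point is a tested gene, red if called higher and blue if called lower, black bars are list medians and the dashed line the median of all genes tested. The black bar is at 1.63 for the 10 genes and between -0.04 and 0.33 for the lists.

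Genes with a like pattern over the 4 libraries were sought by Euclidean distance of log2 CPM centred on the DMSO mean. Only tested genes with a mean log2 CPM of at least 2 were ranked. The 10 genes were left out, so distances between them are not given. Of the ranked genes, those most like HMOX1 were GDF15 (distance 0.828), FOS, CDKN1A, DDIT3 and ATF3 (distance 3.02). GDF15 was measured at 1.24 and 0.899 CPM with DMSO and at 164 and 114 CPM with SGSS05-NS. Nearest to GCLM, again with the 10 genes left out, were MIR3648 (distance 0.128), NACC2, DRAXIN, TIGAR and TP53INP1 (distance 0.279). TP53INP1 was measured at 42.0 and 52.2 CPM with DMSO and at 191 and 162 CPM with SGSS05-NS. With 4 libraries in 2 groups, such a distance mostly follows the size of the difference.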

How the data were processed

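The authors used Trimmomatic 0.30 for trimming and STAR 2.4.2a for alignment to hg19, and the deposited values are raw fragment counts per gene, neither normalized nor pooled. Versions are from the submitters' processing notes, which also name edgeR 3.10.5. The labels name a TruSeq RNA kit and the methods a stranded total RNA kit. Each file held 57820 genes and 4 summary rows, which were left out of library sizes (37.3% to 38.8% of all fragments).

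Reverse-strand counts were tested in R 4.3.3 (edgeR 4.0.16). The steps were filterByExpr, TMM, the quasi-likelihood test and Benjamini-Hochberg adjustment over 16468 genes, with a threshold of 0.001. The study's likelihood ratio test was an alternative. Others were DESeq2 1.42.0, limma 3.58.1 (voom), other scalings, filters and thresholds, unstranded counts, the replicate number and each library left out. Standard errors are the fold change over the square root of F. The main test was tested on simulated data, where it missed small changes more often than large ones, so a gene that did not pass may still differ. Fragments without molecular identifiers are not independent, so intervals cover counting error only. Replicate libraries differed beyond sampling noise.

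Symbols, lengths, positions and exon overlaps came from GENCODE release 44 on GRCh37, and 2282 identifiers had no symbol. The deposited counts were made with release 19, and the overlaps in that release were not checked. Levels per kb use the length of the main transcript, and which transcripts were present was not measured. The members and lists were chosen with earlier results of these data known. Genes named besides the members were the 3 with the smallest p per pathway list past the threshold, 15 fixed for their place in the pathway, and the 5 nearest to HMOX1 and to GCLM. The markers were named for the check of the cell line. The results of 2 genes of these lists are not reported here.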

Additional observations from a re-analysis of the deposited data

Results flagged for a closer look

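Fragments on the strand opposite to SQSTM1 were flagged as a signal outside the main measurement that was above the DMSO libraries. They averaged 9.95 CPM with SGSS05-NS and 6.29 CPM with DMSO, from 218 and 237 fragments against 164 and 141. Its source was not tested.

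Fragments on the strand opposite to NFE2L2 were flagged for the same reason. They averaged 4.04 CPM with SGSS05-NS and 0.745 CPM with DMSO, from 81 and 104 fragments against 17 and 19. They were counted over the whole gene, which shares 3509 exon bases with HNRNPA3, 190 with a noncoding gene and 11 with AGPS on that strand. The part of these overlaps in the signal was not tested.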

How the results depend on the processing

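Of 128 values of the 10 genes under the alternatives that refit them, at the threshold of 0.001, 119 kept their direction and their side of the threshold and 9 newly passed it, and none lost a call or changed sign. The genes that newly passed were NFE2L2, under edgeR's likelihood ratio test, DESeq2, no filter, unstranded counts, the replicate block, and without DMSO 1 (0.78), without DMSO 2 (0.61) or without SGSS05-NS 2 (0.89), and KEAP1, under the likelihood ratio test. At an adjusted p under 0.05 all 10 genes passed, SRXN1 included. Without SGSS05-NS 1, NFE2L2 was at 0.48. Over all genes, 1049 were higher and 1341 lower. The likelihood ratio test gave 2022 and 2267, no filter on low counts 2034 and 2570, and an adjusted p under 0.05 gave 3728 and 3903. Of the pathway genes, 15 higher and 8 lower became 24 and 14 with the likelihood ratio test, 24 and 14 with no filter, and 32 and 20 at 0.05. With the replicate number as a replicate block, 1759 genes were higher and 2007 lower, 19 pathway genes higher and 13 lower, and 8 of the 10 genes higher. The deviations of same-numbered libraries correlated at 0.082 over 2 pairs, and the labels state nothing that a number shares, so the libraries were not treated as paired. Leaving out each library in turn gave 1037 to 1279 genes higher, 1322 to 1649 lower, 7 to 8 of the 10 genes higher, 15 to 16 pathway genes higher and 9 to 10 lower, and an HMOX1 excess of 5.34 to 5.62. A lone library was then assumed to vary like the other condition. With at least 10 counts in every library, OSGIN1 and SRXN1 were not tested and the HMOX1 excess was not computed. Depth limits SRXN1, with 6 to 15 fragments per library. Where DESeq2 returned no adjusted p, it was kept as missing.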
